A study of Homo sapiens with 6 samples.

Results

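Polypyrimidine tract binding proteins (PTB) and hnRNP L proteins are RNA-binding repressors and activators of exon choice. PTBP1 is the form of most dividing cells, PTBP2 is best known from neurons, PTBP3 is a further paralog, and HNRNPL and HNRNPLL encode hnRNP L and its close relative. PTB proteins bind pyrimidine-rich RNA such as UCUU and CUCUCU, and hnRNP L proteins bind CA-rich RNA. These genes are known to limit their own output through splicing: a skipped or an added exon shifts the reading frame, a premature stop codon follows, and the mRNA is removed by nonsense-mediated decay (NMD). An added exon of this kind is called a poison exon.

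To determine whether a rise of SAM68 was accompanied by a change in the splicing or the level of these repressors, all alternative splicing (AS) events of PTBP1, PTBP2, PTBP3, HNRNPL and HNRNPLL were taken from the 5 deposited tables. The tables list 78336 events. Of the 78224 that could be read, 46 belong to the 5 genes. Of these, 44 reached the required mean of 10 reads per library and were tested, among 66396 events tested in all. PTBP1 and PTBP3 had 13 tested events each, PTBP2 had 7, HNRNPL had 6 and HNRNPLL had 5. They comprised 30 skipped exons (SE), 5 alternative 3ʹ splice sites (A3SS), 3 alternative 5ʹ splice sites (A5SS), 2 pairs of mutually exclusive exons (MXE) and 4 retained introns (RI).

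The cells were NCI-H1975, an established human lung adenocarcinoma (LUAD) line. The control group received the empty PCDNA3.1 plasmid and the SAM68 group received PCDNA3.1-SAM68, each at 2 µg per well for 48 h by lipid transfection, with 3 libraries in each group. The plasmid acts transiently and on top of the SAM68 gene of the cells. No p-value covers more than the variation between these libraries. The main test of events uses a spread shared by all events of a type, not that of each event alone. Depth, as the sum of junction reads over the skipped exon events, was 16951876 to 19737729 per library. Libraries of a group are called the first to the third after their place in the deposited lists, which carry no replicate numbers.

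KHDRBS1, the gene of SAM68, was examined first. Because gene counts are not part of the tables, each gene was represented by its most deeply read event, scaled to 1000000 such reads per library (rpm). KHDRBS1 had 311, 328 and 316 rpm under the empty plasmid and 1230, 1260 and 1276 under SAM68, a log2 fold change of 1.98 (standard error 0.047, limma with Benjamini-Hochberg adjustment over 10147 genes, adjusted p = 1.16e-21). These rpm include any reads of the plasmid, and in bulk RNA a higher level per cell and a larger number of expressing cells cannot be told apart. Among markers of the cell line, KRT18 (471 to 530 rpm) and KRT8 (229 to 520 rpm, highest in the first control library) were read in all 6 libraries, and 3 of 8 listed epithelial markers had an event in the tables. None of the 3 endothelial markers had one, 1 of 4 fibroblast markers summed to at most 1.43 rpm, CD68 was the only one of 4 blood cell markers (92.0 to 104 rpm), and TUBB3 (274 to 296 rpm) and MAP2 (1.34 to 2.76 rpm) were the only ones of 4 neuron markers. A gene without an alternative event does not appear in these tables.

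The sequences below show the exons on which the results turn, read from hg38 in the direction of the transcript. The first 3 lines give the 34-nt exon that the PTB paralogs share, in capitals, with 40 bases of the intron before it and 10 bases after it.
PTBP1 exon 11: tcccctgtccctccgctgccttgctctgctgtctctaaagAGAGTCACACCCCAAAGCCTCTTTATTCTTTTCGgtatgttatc
PTBP2 exon 10: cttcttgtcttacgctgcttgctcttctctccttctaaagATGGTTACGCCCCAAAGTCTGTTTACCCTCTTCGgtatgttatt
PTBP3 exon 10: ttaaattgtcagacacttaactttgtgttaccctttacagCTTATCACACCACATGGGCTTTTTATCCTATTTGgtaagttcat
The stretches are chr19:807829-807912 on the + strand, chr1:96806379-96806462 on the + strand and chr9:112231370-112231453 on the - strand. The exon of PTBP1 shared 25 of 34 bases (73.5%) with that of PTBP2 and 22 (64.7%) with that of PTBP3, and the exons of PTBP2 and PTBP3 shared 21 (61.8%). Because 34 is not a multiple of 3, leaving the exon out shifts the frame, and GENCODE 44 gives the PTBP1 junction from exon 10 to exon 12 to 2 transcripts, both of the NMD class.

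The next 3 lines show the other PTBP1 exons that are described here. Capitals mark all of exon 2, the stretch of exon 9 between its 3ʹ splice sites (acceptors), and the stretch between both acceptors of exon 12.
PTBP1 exon 2: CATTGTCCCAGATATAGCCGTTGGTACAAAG
PTBP1 exon 9: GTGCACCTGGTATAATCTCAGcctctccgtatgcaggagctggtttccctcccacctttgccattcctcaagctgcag
PTBP1 exon 12 start: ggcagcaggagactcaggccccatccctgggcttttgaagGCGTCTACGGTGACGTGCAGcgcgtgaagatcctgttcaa
They lie at chr19:799413-799443, chr19:805492-805569 and chr19:808320-808399, all in coding sequence apart from the intron bases before exon 12. Exon 9 encodes part of the linker between RNA recognition motifs of PTB and has a long form of 78 nt, a short form of 57 nt and a skipped form. The stretch of exon 12 in capitals has 20 nt, so that leaving it out together with exon 11 removes 54 nt, or 18 codons, and keeps the frame.

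The last pair shows the poison exons of the hnRNP L genes from their first base to the annotated stop codon, which is in capitals.
HNRNPL poison exon: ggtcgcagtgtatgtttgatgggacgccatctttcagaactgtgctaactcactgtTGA
HNRNPLL poison exon: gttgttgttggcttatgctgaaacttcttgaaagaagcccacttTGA
They lie at chr19:38841624-38841682 and chr2:38577956-38578002, both on the - strand, in the intron between exons 6 and 7 of either gene. The exon of HNRNPL has 70 nt with the stop codon at base 57, and that of HNRNPLL has 83 nt with the stop codon at base 45. GENCODE 44 has each in 1 transcript, of the NMD class.

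Differences in the splicing of the 5 repressor genes between the groups were small in most events. None of the 44 events passed an adjusted p of 0.05 together with a difference in percent spliced in (ΔPSI, SAM68 minus control) of at least 10 points, in a quasi-binomial test over all events with Benjamini-Hochberg adjustment within each type. Over all 66396 events 62 (0.0934%) passed. Without the limit on ΔPSI, 1 of the 44 passed, exon 2 of PTBP1, against 0.259% of all events. An unadjusted p under 0.05 was found for 8 of the 44 events and for 5.95% of all events, and the PSI values of the groups did not overlap in 6 of the 44 and in 6.1% of all. The number with an unadjusted p under 0.05 was 3 when each event kept its own dispersion, 2 when logit PSI was tested with limma, 5 to 7 when 1 library was left out, and 13 in a likelihood ratio test on pooled counts, which ignores the spread between libraries. Many of the 44 events share exons and reads, so they are not independent.

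The median absolute ΔPSI was 0.913 points over the 44 events and 1.24 points over all events tested. The 44 events were read more deeply, with a median of 278 reads per library against 111 over all events. At a mean of at least 50 reads, where 37 of the 44 events remained, the medians were 0.684 and 0.761 points, and no event of the 5 genes moved by 10 points. PSI in the control group was above 95% or under 5% in 30 of the 44 events (68.2%), and in 67.6% of all events. In the plot of ΔPSI against reads, the widest error bars belong to 3 events of PTBP2 (standard errors of 9.17 to 11.4 points), whose events had 18.8 to 57.3 reads per library, followed by events of PTBP3 (at most 6.40 points).

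**Figure D1:**
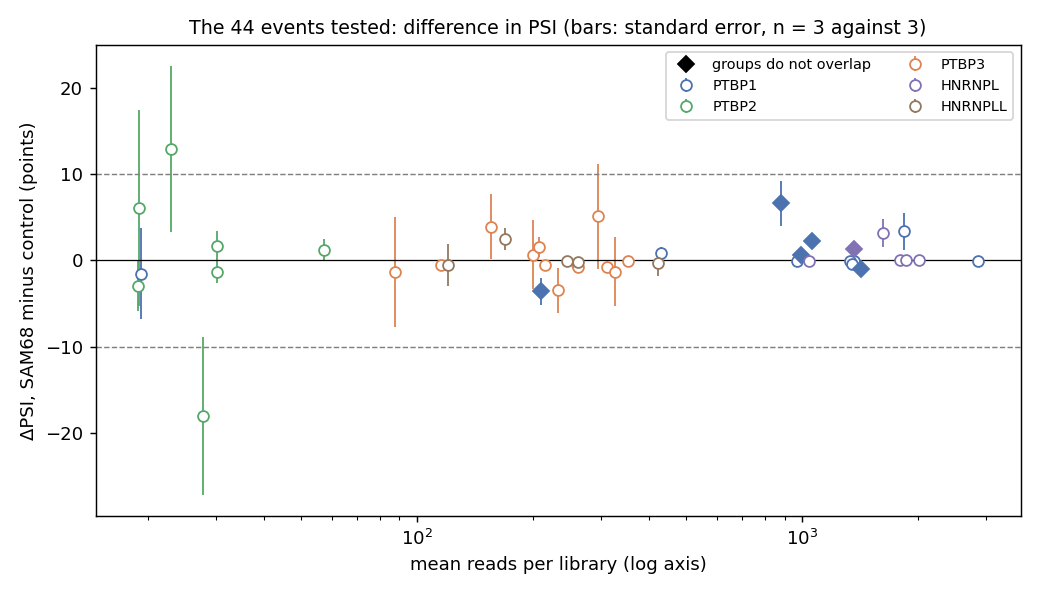
ΔPSI of the 44 tested events in percentage points (y axis, bars are standard errors, n = 3 against 3) against the mean number of reads per library (x axis, log scale), with filled diamonds where the PSI values of the groups do not overlap and dashed lines at 10 points. Only 2 events, both of PTBP2 and both with under 30 reads, lie beyond the dashed lines, and the 6 diamonds belong to PTBP1 and HNRNPL.

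PTBP1 exon 2 gave the smallest p of the 44 events. This 31-nt coding exon joins the first exon to the region of the first RNA recognition motif, and leaving it out shifts the frame, although GENCODE 44 gives the skipping junction to 1 protein-coding transcript. Reads that skip it numbered 25, 19 and 24 under the empty plasmid and 10, 0 and 0 under SAM68, beside 948, 1043 and 1120 and then 1173, 1030 and 959 inclusion reads. PSI was 96.9%, 97.8% and 97.4% under the empty plasmid and 98.96%, 100% and 100% under SAM68. Each SAM68 library thus lay above each control library. Skipping fell from 2.64% ± 0.479 to 0.346% ± 0.599 (SD, n = 3 each), a ΔPSI of 2.29 points (standard error 0.443, quasi-binomial test with limma's moderation, adjusted p = 0.00598). The 0 reads in the second and the third SAM68 library allow skipping of up to 0.357% and 0.384% on the scale of PSI, by counting error alone. Its adjusted p was 0.692 with its own dispersion, 0.896 when logit PSI was tested with limma, 0.0756 without the first control library, 0.189 without the second SAM68 library and 0.133 without the third SAM68 library.

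**Figure D2:**
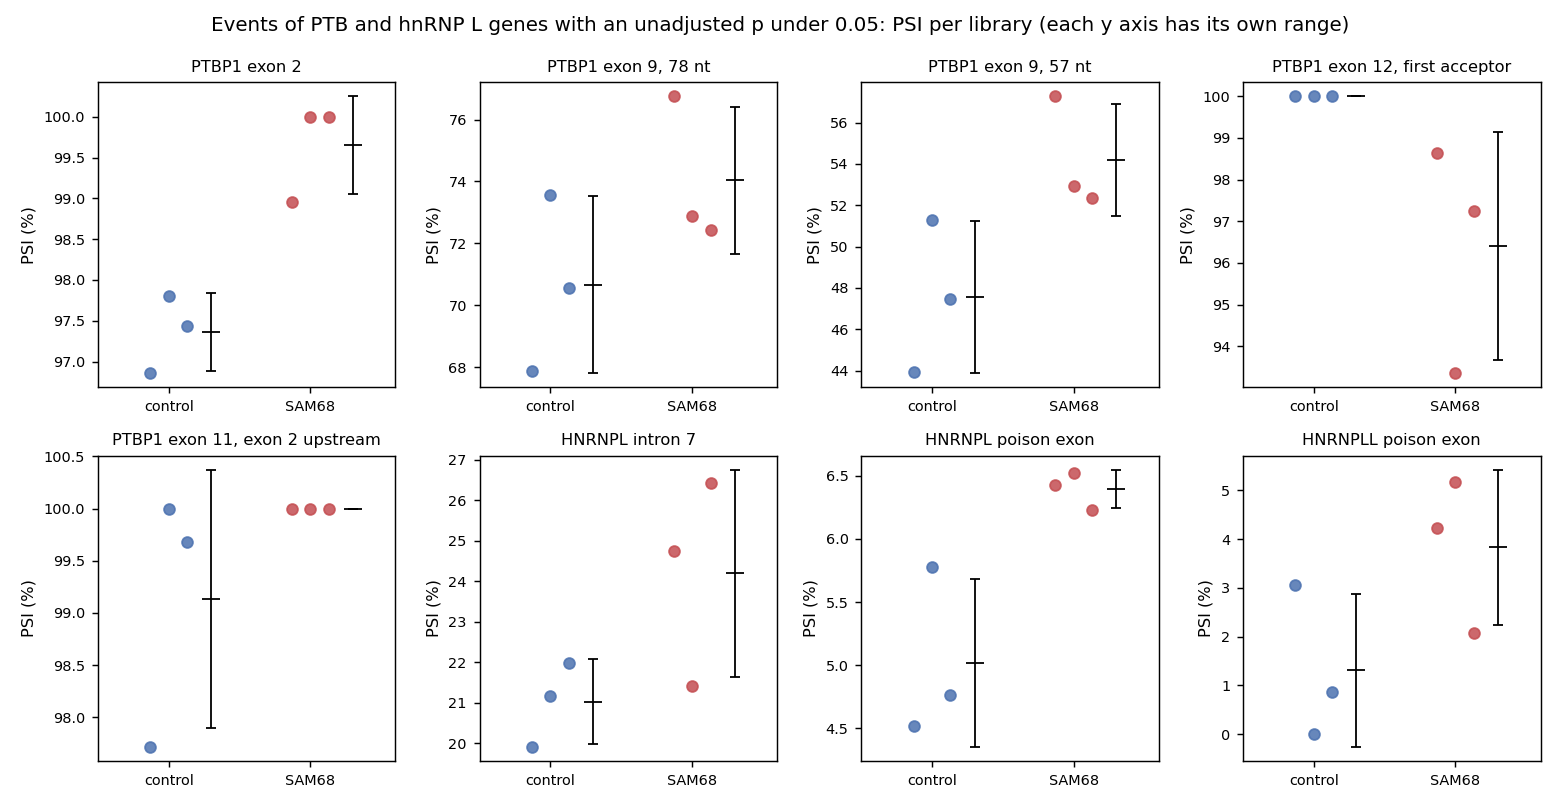
PSI in percent (y axis, each panel with its own range) of the 8 events with an unadjusted p under 0.05, with 1 point per library and the mean with its SD beside the points. The groups are apart in PTBP1 exon 2, the 57-nt form of exon 9, the first acceptor of exon 12 and the HNRNPL poison exon, and they overlap in the other 4 panels.

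The 34-nt exon 11 of PTBP1, the switch through which PTB is known to limit its own mRNA, was included in nearly all reads of both groups. Inclusion reads numbered 1321, 1397 and 1382 under the empty plasmid and 1630, 1306 and 1346 under SAM68. Reads that skip to the first base of exon 12 numbered 15, 17 and 16 under the empty plasmid and 36, 21 and 28 under SAM68. PSI was 98.6%, 98.5% and 98.6% under the empty plasmid and 97.3%, 98.0% and 97.5% under SAM68. The groups did not overlap, but the difference of -0.96 points (standard error 0.220) had an unadjusted p of 0.0509 and an adjusted p of 0.699 in the quasi-binomial test. With both skipped exon events of exon 11 summed, it was -0.53 points (unadjusted p = 0.181).

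A further junction skips exon 11 and enters exon 12 at its second acceptor, 20 nt inside the exon, so that the frame is kept. GENCODE 44 gives it to 1 protein-coding transcript. It had no read in any of the 3 control libraries and 3, 10 and 6 reads in the SAM68 libraries. In the A3SS event of this acceptor, PSI of the longer form was 100% in each control library and 98.6%, 93.4% and 97.2% in the SAM68 libraries, a ΔPSI of -3.59 points (standard error 1.58, quasi-binomial test, unadjusted p = 0.00125, adjusted p = 0.271). Without the second SAM68 library, which held 10 of the 19 reads, the ΔPSI was -2.07 points. The unadjusted p was 0.136 with its own dispersion and 0.00119 when logit PSI was tested with limma. The 0 control reads, beside 591 reads of the longer form, allow up to 0.578% for the shorter form on the scale of PSI. The longer form of this event also counts reads that run across the second acceptor inside exon 12, which come from transcripts with exon 11 too.

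With both acceptors added up, a sum chosen after its values were seen, reads that skip exon 11 numbered 15, 17 and 16 under the empty plasmid and 39, 31 and 34 under SAM68. The skipping share was 1.40%, 1.503% and 1.43% under the empty plasmid and 2.91%, 2.89% and 3.07% under SAM68. It was thus 1.45% ± 0.051 and 2.96% ± 0.098 (SD, n = 3 each), higher in 3 of 3 SAM68 libraries (p = 0.1 in a two-sided exact permutation test, the smallest value possible with 3 against 3). Of the skipping reads of the SAM68 libraries, 7.69%, 32.3% and 17.6% used the second acceptor. Reads that skip exon 11 stayed a small share in both groups. Because mRNA of the NMD class is removed, reads to the first acceptor may understate how often the exon is skipped.

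**Figure D3:**
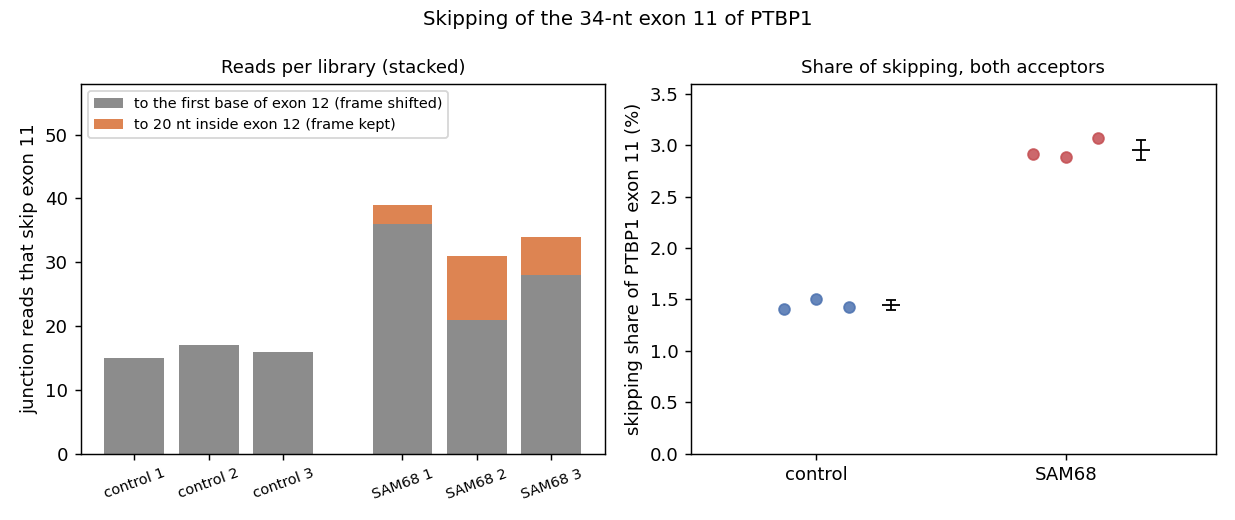
Left, junction reads that skip exon 11 of PTBP1 in each library (y axis), stacked by the acceptor of exon 12 that they join. Right, the skipping share in percent (y axis), with 1 point per library and the mean with its SD beside them. The control libraries have 15 to 17 reads and the SAM68 libraries 31 to 39, and reads to the second acceptor appear only in the SAM68 libraries.

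Exon 11 also appears in an event whose upstream exon is exon 2, with a skipping form that joins exon 2 to exon 12 and leaves out the exons between them. That junction drew 8, 0 and 1 reads under the empty plasmid and none under SAM68, which gave a PSI of 97.7%, 100% and 99.7% and then 100% in each (quasi-binomial test, unadjusted p = 0.0174, adjusted p = 0.699). The groups overlapped. The first control library held 8 of the 9 reads, and the ΔPSI of 0.868 points was 0.159 points without it. The unadjusted p was 0.277 with the event's own dispersion and 0.0727 when logit PSI was tested with limma.

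Exon 9 of PTBP1, whose inclusion is known to change the repressor activity of PTB, was included in most transcripts. PSI of the 78-nt form was 67.9%, 73.6% and 70.6% under the empty plasmid and 76.8%, 72.9% and 72.4% under SAM68. The second control library lay inside the range of the SAM68 libraries. The means were 70.7% ± 2.86 and 74.0% ± 2.37 (SD, n = 3 each), a ΔPSI of 3.37 points (standard error 2.14, quasi-binomial test, unadjusted p = 0.0202, adjusted p = 0.699). The ΔPSI was 1.97 points without the first control library and 2.01 points without the first SAM68 library. With its own dispersion the unadjusted p was 0.192, and it was 0.730 when logit PSI was tested with limma. The reads that skip exon 9 numbered 381, 353 and 356 under the empty plasmid and 341, 329 and 359 under SAM68.

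The 57-nt form of exon 9 had a PSI of 43.9%, 51.3% and 47.5% under the empty plasmid and 57.3%, 52.9% and 52.3% under SAM68. Its ΔPSI of 6.62 points (standard error 2.64, quasi-binomial test, unadjusted p = 0.00183, adjusted p = 0.337) was the largest among events with at least 50 reads, and the groups did not overlap. With its own dispersion the unadjusted p was 0.0672, and it was 0.587 when logit PSI was tested with limma. The PSI of this event does not measure the short form. Only 19, 20 and 15 reads of the control libraries and 17, 12 and 11 of the SAM68 libraries crossed the short acceptor, which is 3.26 to 4.45% and 1.95 to 2.60% of the inclusion reads of the event. The other inclusion reads cross the junction to exon 10, which both forms share. Between the acceptors, the long one took 97.6%, 97.9% and 98.1% of the control libraries and 98.3%, 98.5% and 98.7% of the SAM68 libraries, a difference of 0.644 points (standard error 0.198, adjusted p = 0.805) without overlap between the groups. The counts of this acceptor event were recovered from lists whose digits a spreadsheet had regrouped.

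Of the other PTBP1 events, exon 13, the most deeply read (2870 reads per library), had a PSI of 100% in 5 libraries and 99.9% in the first SAM68 library. The first acceptor of exon 6 took 98.3 to 99.3% in the control libraries and 97.9 to 98.7% in the SAM68 libraries (adjusted p = 0.805, from recovered counts), and the intron of 83 nt after exon 4 was retained at 0.20% or less in each library. The intron before exon 6 drew 1, 0 and 4 retention reads under the empty plasmid and 0, 1 and 3 under SAM68. Beside 1164 to 1485 reads spliced to the first acceptor, its PSI was 0.185% or less in each library. A further event sets the same retention reads against only 9 to 29 reads of the second acceptor. Its PSI of 2.74%, 0% and 13.9% and then 0%, 1.90% and 10.1%, with wide overlap, is therefore not the retention level of the intron.

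In HNRNPL, the poison exon was included more often in each SAM68 library than in each control library. Inclusion reads numbered 88, 117 and 89 under the empty plasmid and 152, 118 and 134 under SAM68, beside 1163 to 1247 and 1104 to 1445 skipping reads. PSI was 4.52%, 5.78% and 4.76% under the empty plasmid and 6.43%, 6.53% and 6.23% under SAM68. The means were 5.02% ± 0.667 and 6.39% ± 0.152 (SD, n = 3 each), a ΔPSI of 1.38 points (standard error 0.395). The groups did not overlap, and the quasi-binomial test gave an unadjusted p of 0.036 and an adjusted p of 0.699. With its own dispersion the unadjusted p was 0.0336, and it was 0.592 when logit PSI was tested with limma. Because mRNA of the NMD class is removed, reads may understate how often this exon and the poison exon of HNRNPLL are included.

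The poison exon of HNRNPLL was read less. Inclusion reads numbered 8, 0 and 2 under the empty plasmid and 14, 13 and 6 under SAM68, a PSI of 3.05%, 0% and 0.868% and then 4.24%, 5.18% and 2.08%. The first control library lay above the third SAM68 library. The ΔPSI of 2.53 points (standard error 1.29) had an unadjusted p of 0.0346 and an adjusted p of 0.699 in the quasi-binomial test. The unadjusted p was 0.159 with its own dispersion and 0.0593 when logit PSI was tested with limma. The 0 inclusion reads of the second control library, beside 166 skipping reads, allow a PSI of up to 1.10%. Without division by effective length the ΔPSI was 3.99 points.

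Intron 7 of HNRNPL, of 111 nt and therefore in frame, was the retained intron of the 5 genes with the most change. It lies at chr19:38840377-38840487 on the - strand. PSI was 19.9%, 21.2% and 22.0% under the empty plasmid and 24.7%, 21.4% and 26.4% under SAM68, and the second SAM68 library lay inside the control range. The ΔPSI of 3.17 points (standard error 1.59) had an unadjusted p of 0.00223 and an adjusted p of 0.362 in the quasi-binomial test. The unadjusted p was 0.101 with its own dispersion and 0.657 when logit PSI was tested with limma. This ΔPSI was 2.06 points without the third SAM68 library. Reads from unspliced RNA count as retention here. Exons 3, 8 and 9 of HNRNPL, with 1800 to 2006 reads per library, were included at 99.9 to 100% in each library. The A5SS event in which exon 7 either runs on through intron 7 and exon 8 or joins exon 9 had 1039 reads per library and a PSI of 99.8 to 100%. Reads across the junction from exon 8 to exon 9, which the mRNA without intron 7 also has, count for its longer form, so this PSI does not measure retention of intron 7.

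The remaining HNRNPLL exons moved by -0.55 to -0.04 points, with adjusted p of 0.699 to 0.999. Exon 2 of HNRNPLL, the most deeply read, had a PSI of 96.7%, 96.6% and 98.9% under the empty plasmid and 94.4%, 97.8% and 99.03% under SAM68, which overlap widely.

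The 34-nt exon was then compared over the PTB paralogs. In PTBP2, where PTBP1 is known to repress it, PSI was 58.3%, 54.5% and 36.7% under the empty plasmid and 42.5%, 73.6% and 51.5% under SAM68. The ΔPSI was 6.09 points with a standard error of 11.4, at a mean of 19 reads per library, so that a change of the size seen in PTBP1 was not detectable at this depth. PTBP3 exon 10 had a PSI of 100% in each control library and 98.4%, 100% and 100% in the SAM68 libraries, with 3 skipping reads, all in the first SAM68 library. The 0 control reads allow skipping of up to 0.554%.

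PTBP2 had the largest differences and the fewest reads. Use of the first of a pair of acceptors 3 nt apart at its last exon moved by -18.0 points (standard error 9.17, adjusted p = 0.805), from 45.1%, 68.1% and 67.7% in the control libraries to 48.2%, 46.5% and 32.0% in the SAM68 libraries. The groups overlap through the first control library. Use of the first of a pair 15 nt apart at exon 9 moved by 12.9 points (standard error 9.63, adjusted p = 0.805), from 7.58%, 11.9% and 16.7% to 6.49%, 34.5% and 34.03%. Exon 6 was the most deeply read and had a PSI of 100% in 5 libraries and 96.3% in the third control library.

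PTBP3 varied near the start of its coding region, with wide overlap between the groups. Exon 3, of 170 nt, had a PSI of 76.5%, 66.1% and 62.4% under the empty plasmid and 65.6%, 80.7% and 74.1% under SAM68, when joined to the longer form of exon 2 (ΔPSI 5.1 points, standard error 6.09, adjusted p = 0.699). This ΔPSI was 1.47 points without the second SAM68 library and 9.20 points without the first control library. The other 3 events of exon 3 moved by -3.47 to 0.684 points. The donor of exon 2 that adds 9 nt took 75.0%, 74.7% and 68.3% under the empty plasmid and 78.2%, 80.8% and 70.7% under SAM68 (ΔPSI 3.93 points, standard error 3.72, adjusted p = 0.822). Exon 2 itself was included at 97.1%, 97.9% and 95.5% and then at 100%, 97.0% and 98.2% (ΔPSI 1.58 points, standard error 1.14, adjusted p = 0.699). The MXE event of exons 3 and 4 had a PSI of 34.6%, 31.9% and 31.9% and then 27.4%, 39.3% and 27.9% (adjusted p = 0.925). Its form with exon 4 also collects the junction to exon 5, which transcripts with both exons share, so this PSI is not a choice between them. Exon 7 was nearly constant, at 98.97 to 100%.

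The levels of the 5 genes were then compared. None passed an adjusted p of 0.05 with a log2 fold change of at least 1, against 5 of 10147 genes tested (0.0493%), and none passed without the limit on the fold change, against 0.414% (limma with Benjamini-Hochberg adjustment). PTBP1 was the only one with an unadjusted p under 0.05, which 12.1% of all genes had, and the only one without overlap between the groups, which was so for 16.8% of all genes. PTBP1 had 455, 460 and 468 rpm under the empty plasmid and 519, 475 and 551 under SAM68. Each SAM68 library lay above each control library by a small margin. The log2 fold change was 0.16 (standard error 0.0549, unadjusted p = 0.00803, adjusted p = 0.212). All 13 PTBP1 events, which share reads, had more rpm in the SAM68 group, with log2 ratios of 0.06 to 0.55.

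HNRNPL had 382, 324 and 327 rpm under the empty plasmid and 345, 332 and 336 under SAM68 (log2 fold change -0.03, standard error 0.062, adjusted p = 0.902). HNRNPLL had 67.9, 71.3 and 87.2 rpm and then 68.6, 64.4 and 71.7 rpm (log2 fold change -0.14, standard error 0.102, adjusted p = 0.626, and -0.03 without the third control library). Both overlapped between the groups. The events of HNRNPL did not move as one: exon 3 had 346, 350 and 348 rpm and then 288, 306 and 247 rpm (log2 ratio of means -0.31) and exon 9 had a log2 ratio of -0.09, both without overlap, while the event of the poison exon had a log2 ratio of 0.19 with overlap. For exon 3 and exon 9 these values were chosen after they were seen. The rpm of the most-read event did not overlap between the groups in 16.8% of all genes. Over the 5 events of HNRNPLL the log2 ratios were -0.15 to 0.27. PTBP3 had 60.2, 61.3 and 59.7 rpm and then 53.5, 54.7 and 72.6 rpm (log2 fold change -0.02, standard error 0.112, adjusted p = 0.967), while each of its 13 events had a lower mean in the SAM68 group, with log2 ratios of -0.35 to -0.003. PTBP2 had 8.27, 11.5 and 8.87 rpm and then 10.3, 10.6 and 8.80 rpm (log2 fold change 0.06, standard error 0.232, adjusted p = 0.940). The signs of HNRNPL and PTBP3 turned positive, at 0.01 and 0.02, under median ratio scaling. With the reads of all tested events summed, the log2 fold change was 0.28 for PTBP2 (unadjusted p = 0.0655, limma adjusted p = 0.397) and -0.14 for PTBP3 (unadjusted p = 0.0424, adjusted p = 0.340).

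Levels per junction were taken from the most deeply read event of each gene, with reads divided by the effective length of each form and scaled to 1000000 reads. In these events PTBP1 had the highest level, 406 ± 5.48 in the control group and 453 ± 33.8 in the SAM68 group (SD, n = 3 each). HNRNPL followed with 303 ± 28.7 and 297 ± 5.84, and its highest library (336) lay below the lowest of PTBP1 (400). The order of PTBP1 and HNRNPL depends on the event taken. Over all tested events of a gene, the median reads per library, not divided by length, were 1058.5 in PTBP1 and 1711 in HNRNPL. HNRNPLL had 70.4 ± 9.09 and 63.8 ± 3.44, and PTBP3 had 53.2 ± 0.873 and 53.1 ± 9.41. These neighbours overlapped, since the highest PTBP3 library (64.0) lay above the lowest HNRNPLL library (59.98). PTBP2 was lowest, at 8.43 ± 1.46 and 8.71 ± 0.844.

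**Figure D4:**
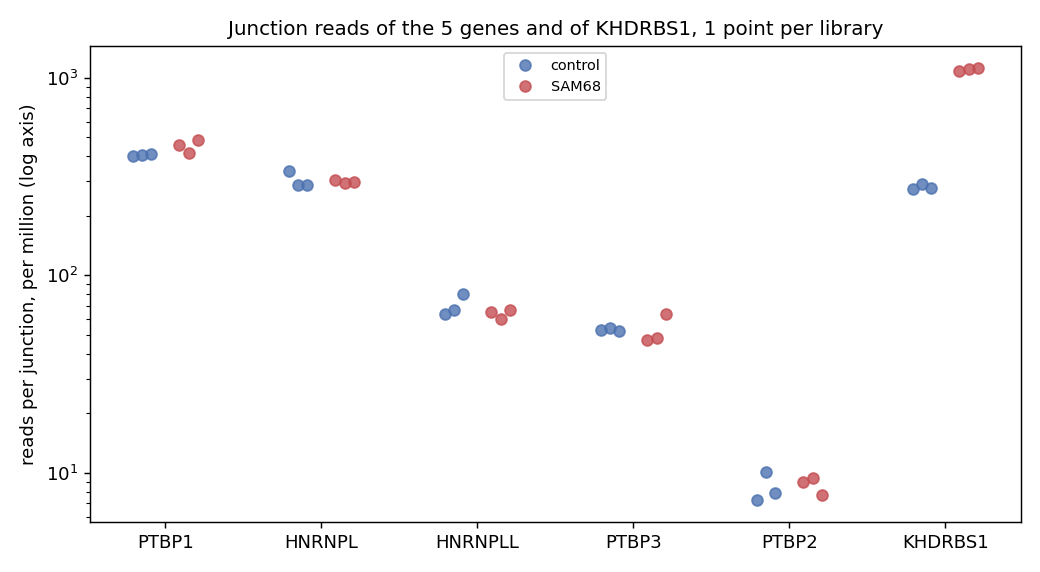
Reads per junction, scaled to 1000000 reads (y axis, log scale), in the most deeply read event of each of the 5 repressor genes and of KHDRBS1, with 1 point per library, control to the left and SAM68 to the right of each name. KHDRBS1 separates widely, PTBP1 lies between 400 and 485, and PTBP2 lies at 10.1 or less.

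The genes most like PTBP1 in log2 rpm over the 6 libraries were SSR3 (Pearson r = 0.991), SUGCT (0.989) and CCDC113 (0.989), and those most like HNRNPL were GKAP1 (0.991), AGBL3 (0.982) and FAM50A (0.980). These are descriptions over 6 points, and 122 genes had an r above 0.9 with PTBP1 and 52 with HNRNPL.

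Genes that work with these repressors were examined as lists. Of the partners (RAVER1, RAVER2, MATR3, PCBP1, PCBP2 and HNRNPK), 5 were in the tables and none passed an adjusted p of 0.05 in either direction. HNRNPK, a poly-C binding protein, came nearest, with 772, 749 and 779 rpm and then 864, 835 and 976 rpm (log2 fold change 0.21, standard error 0.0513, adjusted p = 0.0539). PCBP2 and MATR3, the next in reads, had log2 fold changes of -0.01 and -0.14. Of their 48 events none was called, and 3 (6.25%) had an unadjusted p under 0.05, against 5.95% of all events.

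Of 11 genes with exons known to be repressed by PTB, 10 were in the tables, and none passed the gene test in either direction. Their 104 tested events were not limited to the exons that PTB represses. None was called, and 2 (1.92%) had an unadjusted p under 0.05. An MXE event of RTN4, a membrane protein of the endoplasmic reticulum, passed the adjusted p without the limit on ΔPSI. Its PSI was 49.2%, 47.9% and 46.1% under the empty plasmid and 46.5%, 41.1% and 38.3% under SAM68 (ΔPSI -5.78 points, adjusted p = 0.0299), and the first SAM68 library lay inside the control range. Of 7 genes known as hnRNP L targets, 4 were in the tables. None passed the gene test. None of their 33 events, again not limited to known target exons, was called, with 2 (6.06%) at an unadjusted p under 0.05. The median absolute ΔPSI was 0.428 points for the partners, 0.304 for the PTB targets and 1.86 for the hnRNP L targets, beside 1.24 over all events.

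Motifs were searched on the transcript strand in the 100 bases before and after the 27 distinct skipped exons of the 5 genes and the 38685 of all genes. TCTT stood before 15 of the 27 exons (55.6%, against 61.4% of all) and after 17 (63.0%, against 47.3%). CTCTCT stood before 4 (14.8%, against 8.11%) and after none (4.36% of all). CACA stood before 3 (11.1%, against 29.2%) and after 8 (29.6%, against 28.4%), while CACACA, which contains it, was found beside none (2.31% and 2.39% of all). TAAA, the core of SAM68 sites, stood before 16 (59.3%, against 40.9%) and after 12 (44.4%, against 42.1%). PTBP2 exon 10 had 6 TCTT before it, PTBP3 exon 10 had 5 TAAA, and the HNRNPL poison exon had 3 TAAA before it and none after it. A match of these letters is a description and not a measured binding site.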

How the data were processed

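RNA from 3 control and 3 SAM68 libraries was sequenced by the authors as paired-end reads. They filtered and trimmed the reads with fastp (version 0.20.0 in the submitters' processing notes), aligned them with hisat2 (HISAT2 2.1.0) to GRCh38 without alternate contigs, and ran rMATS. As deposited, the tables give the authors' unnormalized junction counts for either form of an event in lists of 3 values per group, inclusion levels, and p-values, FDR and differences of the authors' own comparison, which were not used. The first list was taken as the control group, as in the study's own plot of its libraries.

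In the A3SS table, a spreadsheet had regrouped the digits of lists in 275 events, of which 163 were recovered and 112 left out.

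PSI was the inclusion count per effective length over the sum of both forms. Events of 10 or more reads on average entered a quasi-binomial model of 2 groups, with the Pearson dispersion moderated within each type by squeezeVar (limma 3.58.1, R 4.3.3), an F test and Benjamini-Hochberg adjustment. The moderated dispersion was shared by all events of a type (2.30 in SE, 2.33 in A3SS, 2.51 in A5SS, 2.53 in MXE and 2.01 in RI), so an event with a larger spread is tested against too small a spread. Gene levels, log2(rpm + 0.5) of the event with the most reads, entered limma's eBayes with a trend, over 10147 genes. The edgeR and DESeq2 tests that had been planned were not run. Fold changes are on this scale. Exact permutation tests are two-sided. Limits for counts of 0 (3 reads, divided by length as in PSI) cover counting error only. No pair of libraries agreed within sampling noise (chi-square per degree of freedom 3.14 to 4.54 within groups). Exons were numbered after GENCODE 44. All 27 distinct skipped exons of the 5 genes had AG before them and GT or GC after them in hg38.

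The genes, events and lists were chosen with earlier results of these data known. Named are all events with an unadjusted p under 0.05, the most-read event of each type and gene, exons with a known role, the 3 largest ΔPSI at 50 or more reads, and listed genes as counts with up to 3 examples. Values named outside this rule, among them the acceptors of PTBP2 exon 9 and the RTN4 and CTTN events, were chosen after they were seen.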

Additional observations from a re-analysis of the deposited data

How the results depend on the processing

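No paired analysis was possible because the lists of the tables carry no replicate numbers. The number of events of the 5 genes that were called stayed at 0 under every event setting run except when the limit on ΔPSI was dropped, which gave 1 (PTBP1 exon 2). Over all events the count of 62 was 2 with an own dispersion for each event, 3 when logit PSI was tested with limma, 1357 with a likelihood ratio test on pooled counts, 106 at 5 points and 172 without a limit on ΔPSI. It was 53 to 73 when 1 library was left out, 60 at a minimum of 20 reads, 59 without a minimum, 68 with adjustment over all types and 57 without division by length. No gene of the 5 was called under any gene setting run. Of 24 named events, 8 changed sign under at least 1 setting, each with an adjusted p of 0.699 or more. When 1 library was left out, ΔPSI ranged from -0.0744 to 0.0559 points for the A5SS event of HNRNPL, -0.0369 to 0.0301 for HNRNPL exon 8, -1.26 to 1.03 for HNRNPLL exon 2, -0.0652 to 0.0348 for the PTBP1 intron after exon 4, -2.77 to 12.8 for PTBP2 exon 10, -5.19 to 0.763 for the MXE event of PTBP3 exons 3 and 4 and -0.419 to 0.0978 for PTBP3 exon 7. For both events of PTBP1 exon 11, it was -0.53 when events that share the exon were summed. The log2 fold changes were -0.0669 to 0.0508 for HNRNPL, -0.208 to -0.0289 for HNRNPLL, -0.0292 to 0.194 for PTBP2 and -0.157 to 0.0616 for PTBP3 when 1 library was left out, 0.00674 for HNRNPL and 0.0155 for PTBP3 under median ratio scaling, and, with all events summed, 0.00299 for HNRNPLL, 0.276 for PTBP2 and -0.140 for PTBP3. Without a change of sign, ΔPSI ranged from 1.97 to 4.83 points for PTBP1 exon 9, -4.70 to -2.07 for the first acceptor of PTBP1 exon 12, 1.47 to 9.20 for PTBP3 exon 3, 1.75 to 6.85 for the donor of PTBP3 exon 2 and 0.772 to 2.30 for that exon when 1 library was left out. Without division by effective length, ΔPSI was 3.99 points for the HNRNPLL poison exon, 0.974 for PTBP3 exon 2 and 0.629 for PTBP2 exon 6. The PTBP1 log2 fold change was 0.11 to 0.21 when 1 library was left out, with adjusted p of 0.0587 to 0.510. Median ratio scaling, limma-voom, a pseudocount of 2 and the summed acceptors of PTBP1 exon 12 were chosen after seeing the data. The planned tests with edgeR and DESeq2 were not run, and limma took their place, with limma-voom on the parsed reads as a count-based alternative. Events of PTBP2 had at most 57.3 reads, which limits what could be detected in them.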
